A study of Mus musculus with 8 samples.

Results

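Nt5e encodes ecto-5'-nucleotidase, also called CD73, and is 1 of the 1931 genes with kidney transcript values in the authors' deposited table. It was chosen by name, after its difference between the groups had been seen. The values that led to the choice were an edgeR adjusted p of 0.0391 over 16064 genes and one of 7.03e-05 in the authors' deposited table. Its difference between the groups is therefore given below as a description, with no test. RNA-seq was done on the kidneys of 8 mice of the strain MRL-lpr, which develops lupus-like disease and whose lpr mutation of the death receptor gene Fas is carried by both groups. All mice were 12 weeks old at sampling. The 4 controls are labelled only as such, and no source used here says what they drank. The other 4 mice were given drinking water with 200 mM propionate over 6 weeks. Propionate is a short-chain fatty acid that gut bacteria release from fibre. Each library has its own sample number and is taken as 1 mouse. No sex, litter or batch is labelled, and the p-values below measure only the spread between these samples.

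CD73 is held on the outer cell surface by a glycosylphosphatidylinositol (GPI) anchor. It removes the phosphate of AMP, which other surface enzymes form from ATP and ADP, and so completes the making of extracellular adenosine. Adenosine acts on 4 receptors, is taken back into cells by nucleoside carriers, and is converted inside by adenosine kinase or adenosine deaminase. In the mouse kidney the enzyme is known from proximal tubule cells, from fibroblasts between the tubules and from mesangial cells, and it takes part in the feedback from tubule to glomerulus. On lymphocytes, adenosine made by CD73 dampens immune responses.

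The promoter of Nt5e is shown as the stretch of DNA around an annotated start of its transcript. The sequence is from RefSeq, build GRCm38.p6, plus strand, chr9:88327359-88327658. It runs from 250 bases before to 50 bases after the start, and capitals mark matches to the GC box. In the GENCODE M21 annotation of the same build the gene begins at 88327197, before this window. Not every transcript counted here therefore starts in it.
Nt5e promoter: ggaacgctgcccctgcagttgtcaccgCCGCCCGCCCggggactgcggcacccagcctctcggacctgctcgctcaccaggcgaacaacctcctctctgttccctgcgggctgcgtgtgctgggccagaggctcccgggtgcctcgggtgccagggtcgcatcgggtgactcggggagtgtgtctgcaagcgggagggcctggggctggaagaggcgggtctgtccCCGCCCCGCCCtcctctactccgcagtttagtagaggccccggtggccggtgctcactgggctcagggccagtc
The GC box was searched as GGGCGG on both strands. There were 4 matches, all as CCGCCC on the printed strand, beginning 223, 219, 24 and 19 bases before the start, and each neighbouring pair overlaps. Such a match is in 35.7% of 32851 promoters of the same length. The core of the hypoxia response element (ACGTG), that of the cAMP response element (TGACG) and a TATA box (TATAAA) had no match on either strand in this window, against 19.6%, 20.8% and 13.6% of all promoters. The window was 71% G or C, where the median of all promoters was 52.7%, and it held 23 CG pairs against a median of 7. These are matches of letters only, and no binding or methylation was measured.

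The libraries held 20005328 to 26711127 assigned reads, of which 13.4% to 15.1% were in the genes analysed. Every gene in the table had an unadjusted p under 0.05 in the authors' comparison of these same mice, with 983 higher and 948 lower with propionate. The table therefore holds differing genes by construction and cannot show what stayed the same. An adjusted p of 0.05 was passed by 157 genes (8.13%) in the authors' deposited table, 103 lower (5.33%) and 54 higher (2.8%). By edgeR's quasi-likelihood test, adjusted over the 1792 genes tested, 1216 passed (67.9%), 465 higher and 751 lower, and with the authors' size factors the split was 863 and 753. Leaving out 1 mouse gave from 148 calls (without control mouse 3) to 1262 (without treated mouse 1). Adjusted over 16064 genes, 6 passed by edgeR (0.335%), Nt5e among them. That count was 0 with the authors' size factors, with library totals only and with a replicate block, where the edgeR adjusted p of Nt5e was 0.109, 0.109 and 0.0947. It was 208 with DESeq2 and 109 once a trend of each library with gene length and GC was taken out. The word "fell" is used below only for genes past the adjusted p of the authors' deposited table.

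Nt5e is a protein-coding gene on chromosome 9, plus strand, from 88209250 to 88254145 as the table gives it (ENSMUSG00000032420). The submitters' processing notes name mm10, but the coordinates in the table do not match that build: of 1913 genes found in GENCODE M21, 44 have the same start and end. In the GENCODE M21 annotation of GRCm38 the gene has the same span of 44896 bases at another position, 88327197 to 88372092. The length that the table uses for Nt5e, 8602 bases, equals the joined exons of its 4 annotated transcripts, 2 of which retain introns. The longest transcript alone has 3995 bases. Reads from any of the 4 count towards the same total, and FPKM (fragments scaled by gene length and by the library's assigned reads) divides by the longer figure.

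Kidneys of propionate-treated mice had 25.8% less Nt5e transcript than those of controls, by mean scaled count. In the controls the scaled counts, read counts divided by the authors' size factor of each library, were 1781, 1769, 1661 and 1681 in mice 1 to 4. In the propionate group they were 1285, 1163, 1258 and 1409. The groups did not overlap, and the lowest control lay 252 scaled counts above the highest treated mouse. The groups were likewise apart for 47.6% of all genes in the table, which were selected on these same mice. The raw counts behind these values were 1860, 1899, 1617 and 1384 reads in the controls and 1308, 1189, 1365 and 1421 with propionate. Control mouse 4 had fewer raw reads than treated mouse 4, since its library was the smallest of the 8.

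In FPKM the controls had 8.44, 8.49, 7.80 and 8.04, and the treated mice 6.05, 5.62, 5.94 and 6.67. The order of the mice was the same in both units within the propionate group, and control mice 1 and 2 changed places. Means were 1723 ± 61.1 scaled counts in controls and 1279 ± 101 with propionate (SD, n = 4 each). In FPKM they were 8.19 ± 0.33 and 6.07 ± 0.44 (SD, n = 4 each). The edgeR log2 fold change was -0.47 ± 0.06 (SE), and that in the authors' deposited table was -0.43. In these bulk samples fewer cells that carry the transcript and less transcript per cell cannot be told apart.

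**Figure D1:**
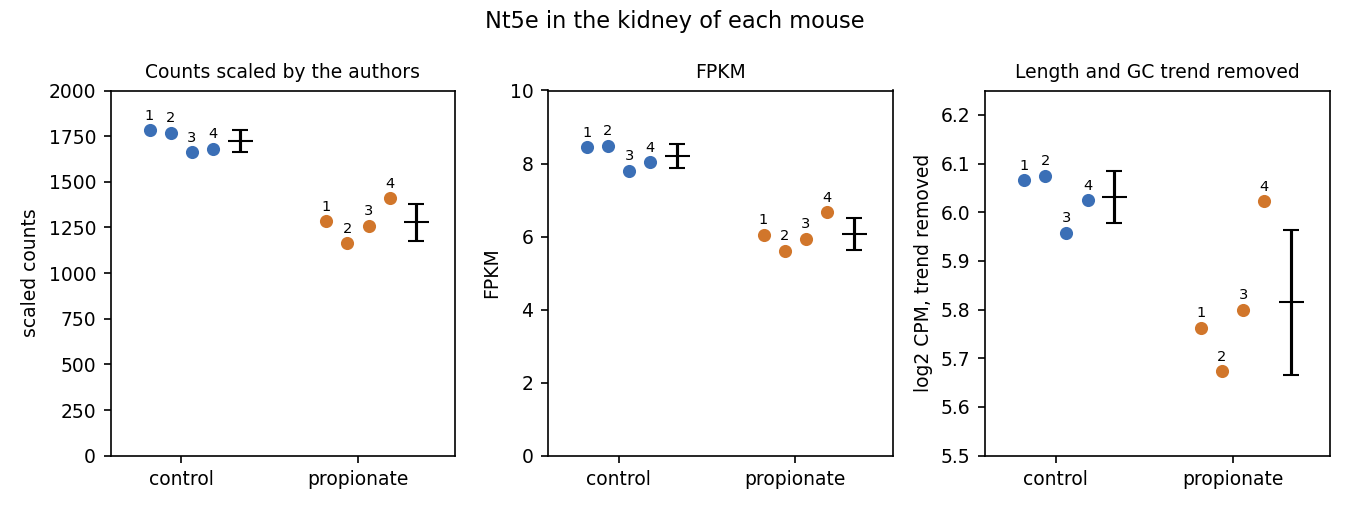
Nt5e in each mouse (points, numbered by mouse) as scaled counts, as FPKM and as log2 CPM (counts scaled to library size) after a length and GC trend was removed, with the mean and SD of 4 mice beside each group. The groups are apart in the first and second panel, and in the third the treated mouse 4 lies at 6.02, among the controls (5.96 to 6.08); the third axis does not start at 0.

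The mice of a group differed little in Nt5e, and the size of its difference between groups was near the middle of the genes called. Its coefficient of variation was 3.54% in controls, where counting reads alone would give 2.45%, and 7.90% with propionate, where counting would give 2.75%. By edgeR its variation between mice beyond counting was 6.66%, against a median of 9.53% over the genes tested, and 88.8% of them varied more. A gene chosen for a small p-value tends to have a small spread, and Ghr, Ahcyl1, Aldoa and Gpaa1, described below, had smaller standard errors than Nt5e. By p-value it ranked 5 in the authors' deposited table. By size of log2 fold change it ranked 79 of the 157 genes past the adjusted p there, at their median of 0.43 in absolute value. By mean scaled count it ranked 514 of 1931.

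Gene length and GC content moved with the direction of change across the table. The tested genes were divided into 5 bins of equal size by length and, separately, by GC. In the bin of longest genes (7345 bases or more), which includes Nt5e, 82.9% were lower with propionate, with a median log2 fold change of -0.29. In the bin of shortest genes 18.8% were lower, with a median of 0.21. Nt5e has 48% GC in its longest transcript and lies in the bin next to the lowest for GC, where 68% were lower. Among 169 tested genes within 25% of its length and 5 percentage points of its GC, 122 (72.2%) were lower and the median log2 fold change was -0.24, where over all tested genes it was 0.11. Of these 169 genes, 25 had a log2 fold change below that of Nt5e.

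Once each library's trend with length and GC was removed, the log2 fold change of Nt5e was -0.21 ± 0.07 (SE), where it was -0.47 before. Of 1783 genes in that fit 32.3% passed an edgeR adjusted p of 0.05. The values on that scale, in log2 CPM, were 6.07, 6.08, 5.96 and 6.02 in the controls and 5.76, 5.67, 5.80 and 6.02 in the treated mice. Treated mice 1 to 3 were then still below every control, and treated mouse 4 was above control mouse 3. Whether the length and GC trend is a property of the libraries or of the kidneys was not tested.

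**Figure D2:**
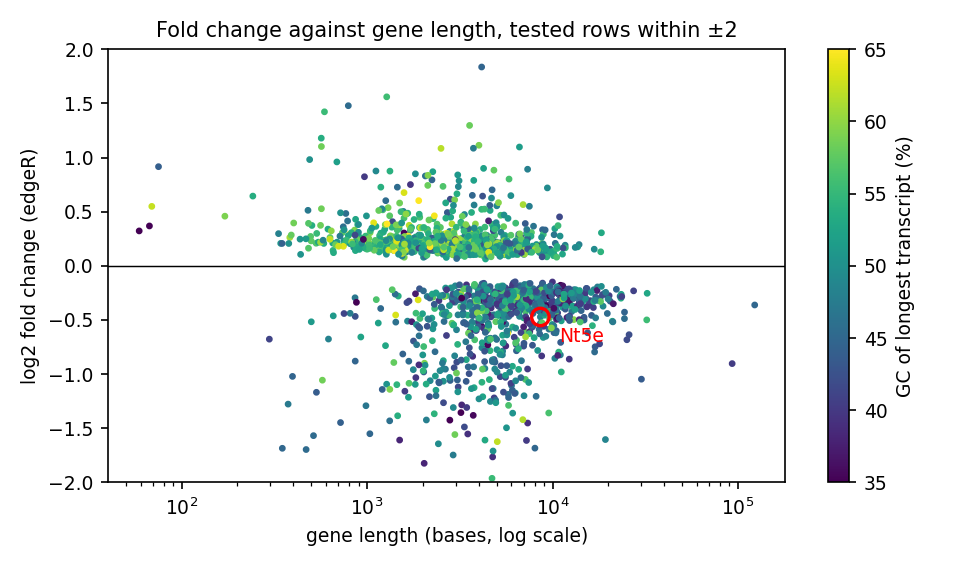
Each point is a tested gene with a known GC content, with its length on a log axis, its edgeR log2 fold change on the vertical axis and its GC as colour; 11 of 1783 genes lie beyond ±2 and are not drawn. Long genes of low GC lie mostly below 0, and Nt5e (red ring) lies among them at 8602 bases and -0.47.

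The search for genes that follow Nt5e from mouse to mouse used deviations from the group mean of log2(scaled count + 1), so that the difference between groups plays no part. It covered the 1529 other genes with a mean scaled count of at least 100. For Nt5e these deviations were 0.05, 0.04, -0.05 and -0.04 in controls 1 to 4 and 0.01, -0.13, -0.02 and 0.14 in treated mice 1 to 4. The pattern thus consists mainly of a low treated mouse 2 and a high treated mouse 4. A Pearson r of at least 0.8 over the 8 mice was found for 42 genes (2.75%), and one of -0.8 or less for 33. The 42 became 19 with TMM scaling, 21 by Spearman's rho, 25 (without treated mouse 4) to 110 (without treated mouse 1) when 1 mouse was left out, and 328 with a replicate block. The median over all 1529 was 0.18. The genes named next are the extremes of that range, the points share their libraries, and no p-value is given for them.

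The closest follower was Ghr, the growth hormone receptor, with r = 0.95 and a Spearman rho of 0.90. Its scaled counts were 14668, 15406, 13921 and 14464 in controls and 11956, 10869, 11600 and 12813 with propionate. As for Nt5e, the groups did not overlap, treated mouse 2 was the lowest of all and treated mouse 4 the highest of its group. Ghr fell with propionate (edgeR log2 fold change -0.35 ± 0.06, SE; authors' deposited table, adjusted p = 0.00231). Without the trend in length and GC its correlation with Nt5e was 0.98, and its own log2 fold change was 0.08. Its edgeR adjusted p over the genes tested went from 0.0114 to 0.489, so that the edgeR call ended. Without treated mice 2 and 4, the farthest from the median in Nt5e, r was 0.81 over 6 mice.

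The next genes were Slc4a2, an anion exchanger (r = 0.92), Ssbp3, a single-stranded DNA binding cofactor of transcription (0.91), Mrpl46, a protein of the mitochondrial ribosome (0.90), and Cxxc1, which binds unmethylated CG pairs (0.90). Tmem41a (0.90), Cables1, which links cyclin-dependent kinases to other kinases (0.90), and Nceh1, a neutral cholesterol ester hydrolase (0.90), completed the 8 highest. Ssbp3 had 1050, 1085, 939 and 1002 scaled counts in controls and 1206, 1135, 1149 and 1442 with propionate. Its groups did not overlap, and it was higher with propionate, unlike Nt5e (edgeR log2 fold change 0.23 ± 0.08, SE). Without treated mice 2 and 4 the correlation of Ssbp3 was 0.92 and that of Tmem41a 0.84. For Slc4a2, Mrpl46, Cxxc1 and Cables1 it was between 0.47 and 0.76, and for Nceh1 it was -0.08, so that its likeness rests on those mice. With all mice and the length and GC trend removed, Cxxc1, Tmem41a and Cables1 had r of 0.66, 0.62 and 0.68, below 0.8. Slc4a2, Ssbp3, Mrpl46 and Nceh1 then had 0.82, 0.93, 0.83 and 0.93.

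The lowest correlations were those of Hsd17b7, an enzyme of cholesterol synthesis (r = -0.94), Cyp4a10, a fatty acid hydroxylase (-0.91), Mgst1, a microsomal glutathione transferase (-0.90), and Ctbs, a lysosomal chitobiase (-0.89). Hsd17b7 had 685, 731, 753 and 744 scaled counts in controls and 588, 676, 566 and 506 with propionate. Here treated mouse 2 was the highest of its group and treated mouse 4 the lowest. Without both mice the 4 correlations lay between -0.67 and -0.29, and with the length and GC trend removed between -0.86 and -0.69. Of the other genes that pass the edgeR adjustment over 16064 genes, Akr1c14 had r = 0.70, Cyp51 0.51, Map3k7cl 0.49, Lpl 0.42 and Slc16a4 0.38. All 5 were lower with propionate, as Nt5e was. Their correlations were unstable, least so that of Slc16a4. Leaving out 1 mouse gave 0.31 to 0.91 for Akr1c14, -0.12 to 0.71 for Cyp51, 0.12 to 0.67 for Map3k7cl, -0.20 to 0.62 for Lpl and 0.24 to 0.59 for Slc16a4. Without treated mice 2 and 4 they were -0.05, 0.25, -0.36, -0.89 and 0.38, in the same order. With all mice and the length and GC trend removed they were 0.80, 0.61, 0.54, 0.70 and 0.66.

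**Figure D3:**
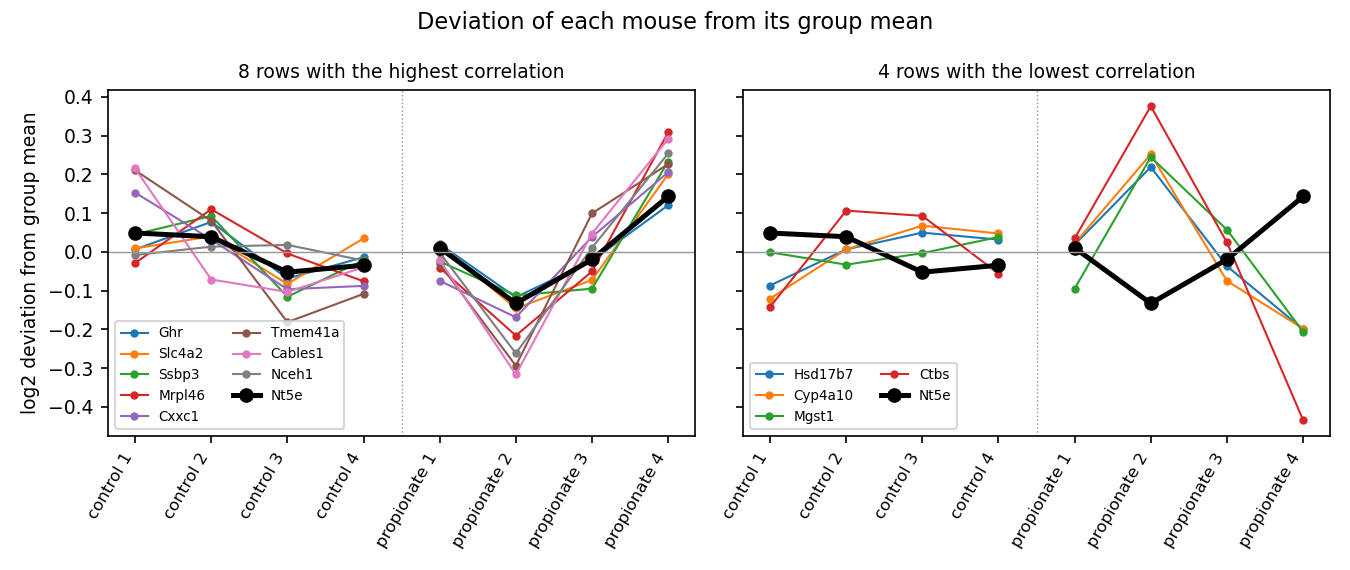
Deviation of each mouse from its group mean, in log2 scaled counts, for Nt5e (thick black line) with the 8 genes of highest and the 4 of lowest correlation; lines join mice of a group only for legibility. Treated mouse 2 (Nt5e -0.13) and treated mouse 4 (Nt5e 0.14) are the farthest from 0 for Nt5e, which lies between -0.05 and 0.05 in the controls.

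Within groups Nt5e went with genes that were higher with propionate, although it was itself lower. Of the 42 genes with r of at least 0.8, 39 were higher with propionate and 3 (Ghr, Nceh1 and Homer1) were lower. All 33 genes with r of -0.8 or less were lower, where 41.2% of the genes compared were. Over all genes compared, the median r was 0.37 for the 899 that were higher and -0.32 for the 630 that were lower. With TMM scaling these medians were 0.13 and -0.26, and 16 of 19 genes at 0.8 or more were higher. The pattern rests on treated mouse 4. In that mouse, genes higher with propionate had a median deviation of 0.13 from the group mean and those that were lower one of -0.09, so that it lay farther from the controls than the rest of its group, while its Nt5e lay closer to them. Without treated mouse 4 the medians of r were -0.16 and -0.11, and of 25 genes then at 0.8 or more, 11 were higher and 14 lower. In treated mouse 4 the median deviation was also 0.16 for the bin of shortest genes and -0.09 for that of the longest. The part of length and GC in this pattern was not tested apart from treatment, and with their trend removed 39 of 56 genes at 0.8 or more were higher and 17 lower.

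**Figure D4:**
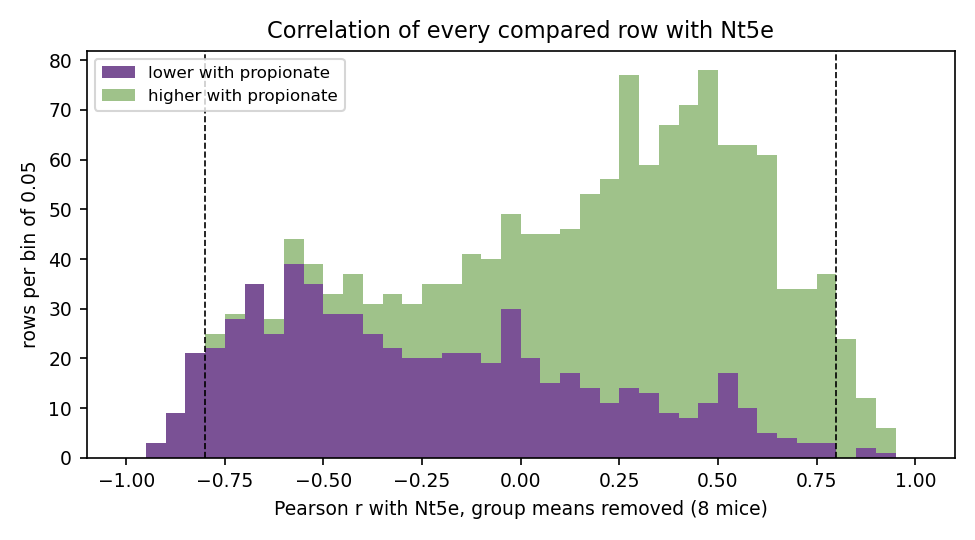
Number of genes per bin of 0.05 in Pearson r with Nt5e over 8 mice, group means removed, stacked by the direction of each gene's difference with propionate; dashed lines mark -0.8 and 0.8. Genes that were higher with propionate lie to the right (median 0.37) and those that were lower to the left (median -0.32).

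Few other genes of extracellular adenosine are among those analysed. From 13 lists of related genes, with 289 symbols beside Nt5e, 27 are among the genes analysed and 26 were tested. Of these 26, 14 were higher and 12 lower, with a median log2 fold change of 0.12 where all tested genes had 0.11. By edgeR adjusted over the genes tested, 17 of 26 passed, 5 higher and 12 lower, against 67.9% of all tested genes, and with the authors' size factors 25 passed, 13 higher and 12 lower. Leaving out 1 mouse gave from 2 (without control mouse 3) to 21 calls. By adjusted p in the authors' deposited table, 3 of 27 fell (Entpd5, Gpc3 and Sik1) and 0 rose, against 5.33% and 2.8% of all its genes. The nucleoside carriers, the channels of ATP release, the genes of NAD synthesis and the ecto-enzymes Entpd1 (CD39), Cd38 and Alpl (alkaline phosphatase) are not analysed here.

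Of the 21 ecto-nucleotidases 3 were analysed beside Nt5e, and none of them is known as a main source of AMP at the cell surface. Entpd5, a nucleoside diphosphatase of the endoplasmic reticulum, had 10003, 10837, 10431 and 10662 scaled counts in controls and 8372, 9781, 7979 and 8716 with propionate. The groups did not overlap, and it fell (edgeR log2 fold change -0.31 ± 0.07, SE; authors' deposited table, adjusted p = 0.0405). Without the trend in length and GC its log2 fold change was -0.02. The edgeR adjusted p over the genes tested went from 0.0211 to 0.873, so that the edgeR call ended. Across mice it did not move like Nt5e (r = -0.44). Enpp2, which forms the lipid mediator lysophosphatidic acid, had a log2 fold change of 0.16 ± 0.08 (SE, edgeR adjusted p = 0.0713), which was 0.49 once the trend was removed (edgeR adjusted p = 0.00387). Enpp6, a choline phosphodiesterase, had one of -0.20 ± 0.07, which was 0.18 with the trend removed. Both had overlapping groups, and neither passed in the authors' deposited table. Per length Nt5e had the lowest level of these 4, with 8.19 FPKM in controls against 71 for Entpd5, 23.6 for Enpp2 and 21.7 for Enpp6.

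Among receptors, Adora2b, the low-affinity adenosine receptor coupled to cAMP, had 116, 96, 86.3 and 91.1 scaled counts in controls and 68.8, 63.6, 58.1 and 85.3 with propionate. Treated mouse 4 lay just below the lowest control, and the groups did not overlap. Its log2 fold change was -0.54 ± 0.18 (SE, edgeR adjusted p = 0.036 over the genes tested), and it did not pass in the authors' deposited table (adjusted p = 0.296). The edgeR call ended in each fit that left out 1 mouse, except that without treated mouse 1 (adjusted p from 0.0414 to 0.0771), and with the length and GC trend removed (0.0558). P2ry2, a receptor for ATP and UTP, had 304, 326, 299 and 366 scaled counts in controls and 276, 276, 219 and 282 with propionate. The groups did not overlap. Its log2 fold change was -0.34 ± 0.11 (SE; authors' deposited table, adjusted p = 0.334). Once the trend was removed it was -0.39 (edgeR adjusted p = 0.0217), and without treated mouse 3 it was -0.26 (edgeR adjusted p = 0.0698). The other adenosine receptors (Adora1, Adora2a and Adora3) are not analysed here.

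Inside cells, Xdh, which makes uric acid from the breakdown products of adenosine, had a log2 fold change of -0.44 ± 0.15 (SE) with overlapping groups, which was -0.24 once the trend was removed (edgeR adjusted p = 0.192). Ahcyl1, a relative of adenosylhomocysteinase, had one of -0.18 ± 0.06, which was 0.09 with the length and GC trend removed. Nt5c, a cytosolic nucleotidase of deoxynucleotides, had 542, 528, 547 and 485 scaled counts in controls and 626, 543, 646 and 694 with propionate, overlapping in treated mouse 2. Its log2 fold change was 0.21 ± 0.08 (SE), which was 0.02 once the trend was removed (edgeR adjusted p = 0.868), and it is 1 of the 42 followers of Nt5e (r = 0.81). Nt5dc2, a protein with a nucleotidase domain, had 0.31 ± 0.11, and the purine synthesis members Impdh2 and Prpsap1 had 0.19 ± 0.09 and 0.16 ± 0.07. None of these 6 passed in the authors' deposited table.

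**Figure D5:**
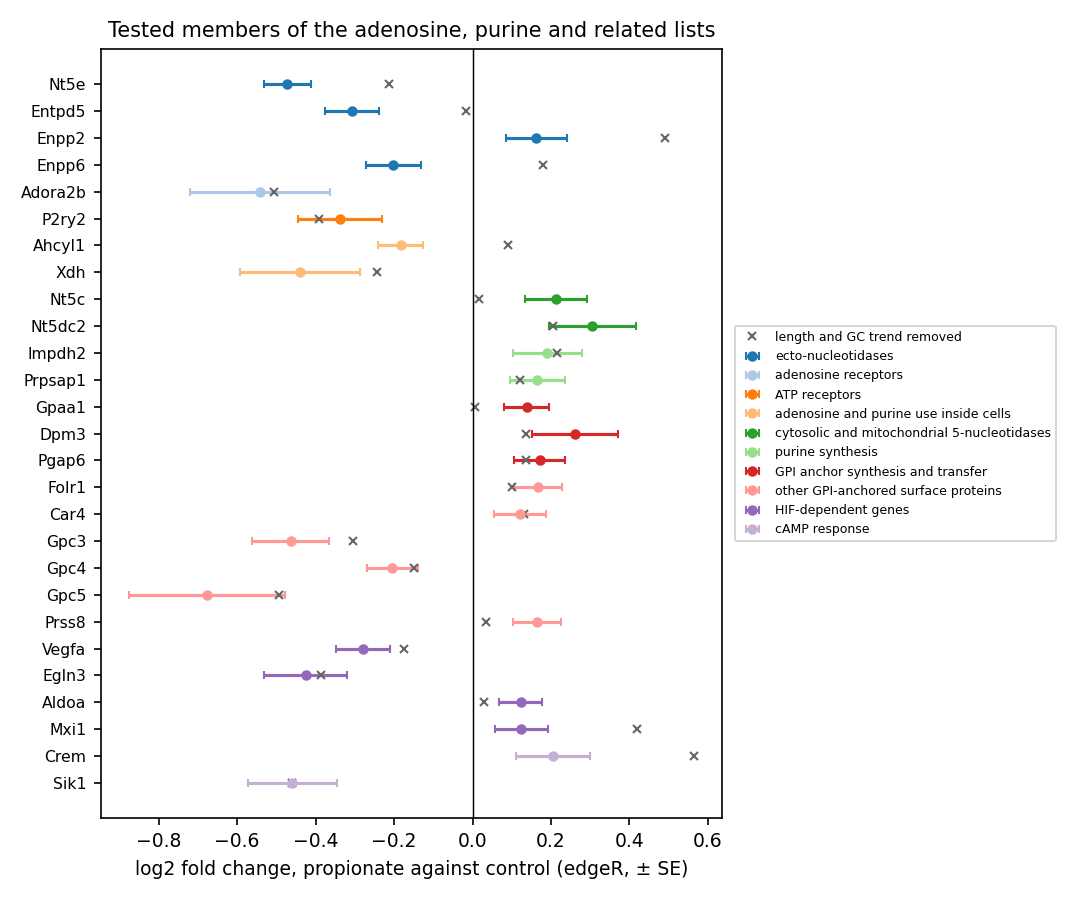
Log2 fold change with SE by edgeR (coloured points, by list) and after removal of the length and GC trend (crosses) for Nt5e and the 26 tested members of the lists. Members lie on both sides of 0, and the crosses of Entpd5, Enpp6 and Ahcyl1 lie at -0.02, 0.18 and 0.09.

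Among genes that make, attach or act on the GPI anchor, Gpaa1, Dpm3 and Pgap6 were analysed. They had log2 fold changes of 0.14 ± 0.06, 0.26 ± 0.11 and 0.17 ± 0.06 (SE). Once the trend was removed these were 0.01, 0.14 and 0.14. None passed in the authors' deposited table. Of the other GPI-anchored proteins, 6 were tested, 3 higher and 3 lower. The glypican Gpc3, a surface proteoglycan, had 860, 685, 666 and 782 scaled counts in controls and 529, 581, 596 and 525 with propionate. The groups did not overlap, and it fell (log2 fold change -0.46 ± 0.10, SE; authors' deposited table, adjusted p = 0.0178). Gpc4 and Gpc5 had -0.20 ± 0.06 and -0.68 ± 0.20, and Folr1, a folate receptor, Prss8, a protease that acts on the sodium channel, and Car4, a carbonic anhydrase, had 0.17, 0.16 and 0.12. Once the trend was removed Gpc3 had -0.30, Gpc4 -0.15, Gpc5 -0.49, Folr1 0.10, Prss8 0.04 and Car4 0.13. Of these only Gpc3 passed in that fit (edgeR adjusted p = 0.0371). Gpc2 was too low to be tested, with 7.66 scaled counts at most and 0 in all treated mice.

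Nt5e is known as a target of hypoxia-inducible factors and of cAMP signalling. Of the genes dependent on hypoxia-inducible factors, Vegfa, a vascular growth factor, had a log2 fold change of -0.28 ± 0.07 (SE; authors' deposited table, adjusted p = 0.0634). Egln3, a prolyl hydroxylase, had one of -0.43 ± 0.11, while Aldoa and Mxi1 had 0.12 ± 0.06 and 0.12 ± 0.07. Once the trend was removed Vegfa had -0.18, Egln3 -0.39, Aldoa 0.03 and Mxi1 0.42. Egln3 and Mxi1 then passed (edgeR adjusted p = 0.0238 and 0.00429), and Egln3 had also passed before (0.0254). Neither passed in the authors' deposited table. Within groups Vegfa went against Nt5e (r = -0.72), while Egln3, Aldoa and Mxi1 had r of -0.01, 0.43 and 0.13. For Vegfa, treated mouse 2 was the highest of its group and treated mouse 4 the lowest. Sik1, a kinase induced by cAMP, had 2620, 3248, 3384 and 2472 scaled counts in controls and 1988, 2486, 2271 and 2014 with propionate. Control mouse 4 lay just below treated mouse 2, so that the groups overlapped, and Sik1 fell (log2 fold change -0.46 ± 0.11, SE; authors' deposited table, adjusted p = 0.0473). By edgeR over the genes tested its call ended without control mouse 3 and without treated mouse 4 (adjusted p = 0.056 and 0.051). Crem, a cAMP-responsive transcription factor, had 0.21 ± 0.09 without overlap, and did not pass in the authors' deposited table. With the trend removed Crem had 0.56 and Sik1 -0.46, and both passed (edgeR adjusted p = 0.00276 and 0.017).

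Markers of cells known to carry CD73 were few among the genes analysed, apart from those of the proximal tubule. Of 14 proximal tubule markers 8 are in the table, at mean levels of 70.7 FPKM or more. Of these, 5 were higher and 3 lower. By edgeR adjusted over the genes tested, 3 of 8 passed, all lower. Of all tested genes 67.9% passed, 41.9% lower and 25.9% higher. The 3 were the carriers Slc13a3 and Slc22a6 and the endocytic receptor Lrp2. Slc13a3, a dicarboxylate carrier, had 16495, 17565, 15575 and 16085 scaled counts in controls and 11369, 15051, 12685 and 12720 with propionate. Its groups did not overlap, and it fell (log2 fold change -0.38 ± 0.08, SE; authors' deposited table, adjusted p = 0.0215). Lrp2 had a log2 fold change of -0.22 ± 0.05 without overlap, which was 0.05 once the trend was removed. In that fit Slc13a3 had -0.41 and passed (edgeR adjusted p = 0.00744), and Slc22a6 had -0.13 and did not (0.259). Gatm and Acsm2, both higher, had 0.52 and 0.53 there and passed (edgeR adjusted p = 0.0103 and 0.00448). Slc34a1, Slc5a2 and Hnf4a, also higher, did not pass in either fit. The summed level of all 8 markers ranged from 1447 to 1748 FPKM in controls and from 1557 to 1833 with propionate. The late part of the tubule was represented by 2 of 8 markers, the phospholipid flippase Atp11a and the monocarboxylate carrier Slc5a8. Their summed level was 37.2 to 45.0 FPKM in controls and 26.9 to 33.1 with propionate, without overlap. Most of the sum is Atp11a (mean over all mice 26.3 FPKM, against 10.4 for Slc5a8). Both are analysed only because they differed between these same mice, so the sum cannot show the level of that part of the tubule. Slc5a8 alone overlapped, with 1384 to 1583 scaled counts in controls and 1549 in treated mouse 2, and its log2 fold change of -0.32 ± 0.13 (SE; authors' deposited table, adjusted p = 0.372) was 0.06 once the trend was removed. Atp11a fell (log2 fold change -0.51 ± 0.09, SE; authors' deposited table, adjusted p = 0.000798). The lists for fibroblasts and mesangium (16 symbols), T cells (14) and B and plasma cells (8) had no member among the genes analysed. Of 10 macrophage markers, Cd68 and Itgam were analysed, with a summed level of 5.64 to 12.6 FPKM in controls and 3.37 to 8.16 with propionate. Most of the sum is Cd68 (mean over all mice 7.14 FPKM, against 0.45 for Itgam). Neither passed by edgeR over the genes tested (adjusted p = 0.0711 and 0.0799) or in the authors' deposited table. Both are analysed only because they differed between these same mice, so the sum cannot show the level of macrophages. The part of any cell type in the lower level of Nt5e was not tested.

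Within 1 Mb of Nt5e on chromosome 9 the table holds 3 genes, which did not share a direction. The non-coding RNA Snhg5, 123176 bases away, had a log2 fold change of -0.64 ± 0.24 (SE). Mthfsl and Bcl2a1d, farther along, had 0.24 ± 0.09 and -0.88 ± 0.36. Snhg5 and Bcl2a1d had few reads, 30 to 63 and 10 to 36 per library, and overlapping groups. Mthfsl had 220 to 377 reads, and its groups did not overlap. Without the trend in length and GC the log2 fold changes were -0.37 for Snhg5, 0.60 for Mthfsl and -0.72 for Bcl2a1d. That of Mthfsl passed (edgeR adjusted p = 0.00356). None passed in the authors' deposited table.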

How the data were processed

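Kidney RNA of 8 mice was sequenced in pairs of 150-base reads, per the labels' protocols. The authors deposited read counts per gene, a scaled signal (counts over a size factor), FPKM and gene lengths, per the file headers. Their deposited table also gives log2 fold changes with p-values, raw and adjusted, which imply 16064 genes. The submitters' processing notes name mm10 and DESeq2, and no source used here names aligner, counter or strandedness. Of 1931 identifiers 1913 are in GENCODE M21 (GRCm38), 44 with the same coordinates, so the table's coordinates are not those of mm10.

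Counts, FPKM and length gave the library totals. The main test was edgeR 4.0.16 (R 4.3.3), quasi-likelihood, with TMM factors, the default expression filter and Benjamini-Hochberg adjustment over 1792 genes, or over 16064 where said. The genes are preselected, so TMM and the smaller adjustment rest on differing genes. The length and GC trend of each library (natural splines, 4 df, GC of the longest GENCODE transcript) was removed by an offset. DESeq2 1.42.0 was an alternative, and the edgeR step was tested on simulated data. FPKM differences used a pseudocount of 0.1. Counting error assumes independent reads.

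Nt5e and the lists were chosen with earlier results of these data known. Genes named are Nt5e, its 8 highest and 4 lowest protein-coding correlates without predicted genes, members of the lists and neighbours within 1 Mb. Homer1, the other genes that pass over 16064 genes and the tubule and macrophage markers were named after their values were seen.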

Additional observations from a re-analysis of the deposited data

Results flagged for a closer look

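In 129 groups of 4 values checked, over 65 genes, a mouse stood apart from the other 3 in 5, all in the propionate group. Chance alone gives about 1 in 20. None was Nt5e. Treated mouse 2 had 4263 scaled counts of Enpp2, against 3630 to 3723 in the others. Treated mouse 3 had 219.4 of P2ry2, against 276 to 282, and 1426 of Mxi1, against 1576 to 1606. Treated mouse 4 had 458 of Nt5dc2, against 326 to 340. Treated mouse 1 had 71776 of Slc34a1, the phosphate carrier of the proximal tubule, against 80951 to 82409.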

How the results depend on the processing

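The log2 fold change of Nt5e was negative in every fit run, from -0.50 to -0.43 when 1 mouse was left out. It was -0.43 with the authors' size factors, with library totals only, in FPKM and in scaled counts, -0.48 with DESeq2, -0.47 with no filter and with the replicate number as a block, and -0.21 once the trend in length and GC was taken out. The edgeR adjusted p of Nt5e over 16064 genes ranged from 0.0478 to 0.202 when 1 mouse was left out and was 0.109 with the authors' size factors, 0.0947 with the replicate block and 0.444 without the trend. Same-numbered mice were not taken as pairs, since the numbers are only names. Their deviations correlated at 0.265, 0.23, -0.13 and 0.278 for mice 1 to 4. Control mice 2 and 4 correlated best with the treated mouse of their own number, and control mice 1 and 3 with another. The 1216 genes called by edgeR became 1273 with the replicate block, 1334 with DESeq2 and 576 (408 higher, 168 lower) without the trend. They were 148 to 1262 when 1 mouse was left out, 148 without control mouse 3, and 571, 339, 568, 197 and 206 without control mouse 1, 2 and 4 and treated mouse 3 and 4. The 17 list members called became 7 with the trend removed and 2 to 21 when 1 mouse was left out (7, 6, 2 and 8 without control mouse 1 to 4, 5 and 4 without treated mouse 3 and 4). In single members, 2 values reversed without the trend, those of Enpp6 (0.18) and Ahcyl1 (0.091). The 42 followers became 21 by Spearman's rho, 19 with TMM, 328 with the replicate block, 56 without the trend, and 25 (without treated mouse 4) to 110 (without treated mouse 1) when 1 mouse was left out. Without treated mice 2 and 4, a setting chosen after seeing the data, there were 51, and Nceh1 reversed to -0.076. For these changes the cause was not tested. At these counts, reading error is 2.45% to 2.75% of Nt5e. The number of mice, 4 a group, limits the rest.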

Other observations

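The 42 genes that followed Nt5e within groups had a median length of 3890 bases and a median GC of 55.2%, against 4071 bases and 51.3% over all 1529 genes compared, while Nt5e itself has 8602 bases and 48% GC. The 33 genes that went against it had a median length of 8030 bases and a median GC of 45.3%. Nt5e thus lay nearer in length and GC to the genes it went against than to those it followed. The main axis of the deviations over all genes (33.3% of their variance) had a correlation of -0.17 with Nt5e over the 8 mice, and the next (27.2%), which sets treated mouse 4 against treated mouse 2, one of 0.81.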
